A study of Mus musculus with 2 samples.

Results

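Pitx1, Isl1, Tlx1 and Nkx2-3 are homeobox genes of the embryonic mouth, and their UMIs (distinct transcript molecules counted per cell) were followed in single cells of the mouse mandible at embryonic day (E) 12.0 and E9.5. The 4 genes were taken by symbol, and each was found among the 27998 genes listed at E12.0 and the 31053 listed at E9.5. The E12.0 library held GFP-positive epithelial cells sorted from the mandibles of 6 pooled embryos, and the E9.5 library held unsorted cells of the mandibular arches of 8 pooled embryos. Both stages carried the K14Cre;R26mT/mG genotype, in which Cre driven by a keratin 14 promoter switches a membrane reporter from Tomato to GFP, so the E12.0 sort kept only cells that had expressed this Cre. Each stage had 1 library and no treatment was given, so no value has a replicate error and no difference was tested. Intervals are exact 95% intervals that cover counting error only, apart from those of the co-detection ratios, which are described with them.

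After cells with 200 to 5500 genes and at most 10% mitochondrial UMIs were kept, 11355 cells remained at E12.0, with a median of 6349 UMIs, and 12744 at E9.5, with a median of 13460.5. The upper gene limit removed 14 of the E12.0 and 1129 of the E9.5 barcodes. The libraries shared 51 cell barcodes. At E12.0, 8 of 8 epithelial markers were detected in over 10% of cells, and the 6 mesenchyme markers summed to 3.50 CPM (counts per 1000000 UMIs of the group). Called doublets, which were kept, made up 5.82% of the E12.0 and 2.60% of the E9.5 cells.

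Homeobox genes encode transcription factors that bind DNA through a homeodomain. Pitx1 is a paired-type factor of the oral ectoderm and the hindlimb. Isl1 is a LIM-homeodomain factor of motor neurons, heart progenitors and the distal oral epithelium. Tlx1 is best known for its need in spleen formation, and Nkx2-3 is an NK2-type factor of pharyngeal epithelium, gut and spleen.

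In the GENCODE annotation of GRCm38, Pitx1 (ENSMUSG00000021506) lies on chromosome 13 at 55825051 to 55836192 on the minus strand, and Isl1 (ENSMUSG00000042258) lies on the same chromosome at 116298281 to 116309689, also on the minus strand. Tlx1 (ENSMUSG00000025215) lies on chromosome 19 at 45150680 to 45156943 and Nkx2-3 (ENSMUSG00000044220) on chromosome 19 at 43612325 to 43615892, both on the plus strand. The promoters of Isl1, Tlx1 and Nkx2-3, from 250 bases before to 50 bases after the start, were read from RefSeq on GRCm38.p6 and are printed to show the sequence at the starts of these members. They span chr13:116309639-116309938 on the minus strand for Isl1, chr19:45150465-45150764 on the plus strand for Tlx1 and chr19:43612075-43612374 on the plus strand for Nkx2-3. Capitals mark CCAAT or its reverse ATTGG, which overlap in 1 place in Nkx2-3.
Isl1: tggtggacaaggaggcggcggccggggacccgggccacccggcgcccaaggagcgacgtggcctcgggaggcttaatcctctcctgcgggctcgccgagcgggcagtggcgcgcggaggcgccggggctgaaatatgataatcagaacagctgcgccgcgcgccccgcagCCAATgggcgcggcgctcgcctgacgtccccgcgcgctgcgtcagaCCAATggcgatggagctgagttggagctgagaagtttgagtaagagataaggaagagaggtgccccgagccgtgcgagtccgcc
Tlx1: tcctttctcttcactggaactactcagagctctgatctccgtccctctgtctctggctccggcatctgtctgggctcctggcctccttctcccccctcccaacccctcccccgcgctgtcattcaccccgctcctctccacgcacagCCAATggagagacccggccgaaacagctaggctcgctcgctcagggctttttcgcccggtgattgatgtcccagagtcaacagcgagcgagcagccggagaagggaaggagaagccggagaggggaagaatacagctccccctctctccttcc
Nkx2-3: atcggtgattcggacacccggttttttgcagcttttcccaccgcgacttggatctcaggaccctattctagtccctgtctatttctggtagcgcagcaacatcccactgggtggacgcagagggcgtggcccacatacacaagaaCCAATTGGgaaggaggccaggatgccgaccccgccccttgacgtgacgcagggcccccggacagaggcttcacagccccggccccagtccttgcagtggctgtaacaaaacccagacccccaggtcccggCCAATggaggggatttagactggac

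All 3 promoters held CCAAT on either strand, as did 37.4% of the 32851 promoters in the table. Isl1 held 2 copies, at -80 and -34 from the start, Tlx1 held 1 at -103, and Nkx2-3 held 3, counting the overlapping pair. At least 3 copies were present in 3.37% of all promoters. The letters TAATCC (or GGATTA), which Pitx-type homeodomains bind, were present in Isl1 alone of the 3 and in 7.06% of all promoters. None of the 3 held AAGTG (or CACTT), the core bound by NK2-type factors, against 46.4% of all promoters. The shorter TAAT (or ATTA), part of TAATCC, was present in Isl1 and in 58.0% of all. These matches describe the letters of these windows only.

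The first question was where each gene was highest within the E12.0 epithelium. Cells were assigned to zones by UMIs of other genes. The tongue gate took cells with at least 2 UMIs of Foxa1 and Foxa2 together (113 cells), the knot gate cells with at least 2 of Shh and none of Foxa (234 cells), the dental gate cells with at least 2 of Irx1 (552 cells), the anterior gate cells with at least 5 of Cxcl14 (4218 cells) and the posterior gate cells with at least 1 of Dmrt2 (539 cells). The last 3 gates also required no Shh or Foxa UMI and no UMIs past the other 2 gates. A further 49.8% of cells passed no gate. These names stand for the gates and not for a position seen in tissue.

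Pitx1 was highest in the dental gate and Isl1 in the tongue and posterior gates, whereas no member reached its highest level in the anterior gate. A member was counted as higher in a zone when its CPM, with 5 added, exceeded that of the rest of the library by 1.3-fold or more and 15% or more of the zone's cells had a UMI. By this size rule 7 of the 20 pairs of member and zone were higher. In the posterior gate 4 of 4 members passed, against 3.31% of the 11831 genes compared. In the tongue gate Isl1 and Tlx1 passed, against 5.06% of genes, and in the dental gate Pitx1 passed, against 2.86%. In the knot gate 0 of 4 passed, against 6.74%, and in the anterior gate 0 of 4, against 2.69%. The ungated cells were left out of this count. They passed the same rule for Pitx1, at 421 CPM against 202 in all other cells, and for Nkx2-3, at 136 against 80.1. Passing was therefore not particular to the named zones for Pitx1 and Nkx2-3. No share of all genes was computed for the ungated cells.

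Pitx1 reached 465 CPM (446 to 486) in the dental gate, 432 (411 to 453) in the posterior, 343 (308 to 381) in the tongue, 185 (166 to 206) in the knot and 126 (122 to 129.9) in the anterior gate. Its level in the dental gate was 3.70-fold that in the anterior gate, and each step in this order exceeded counting error, the smallest being dental over posterior (log2 ratio 0.11, 0.02 to 0.20). Cells that passed no gate stood at 421 CPM, near the dental and posterior values.

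**Figure D1:**
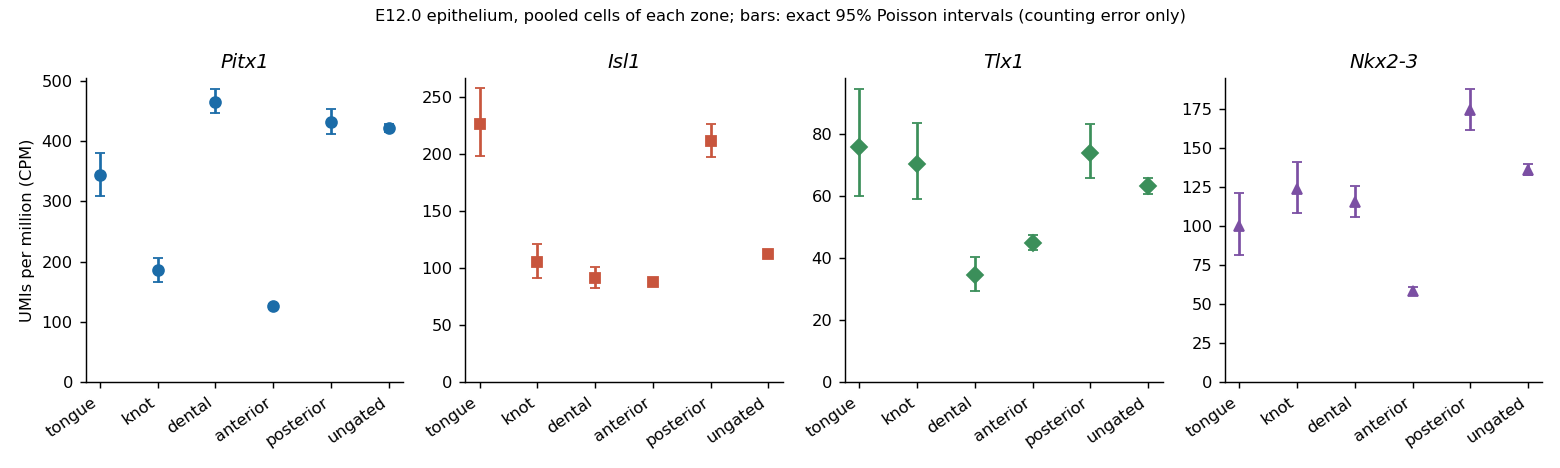
Levels of Pitx1, Isl1, Tlx1 and Nkx2-3 in E12.0 epithelium, in CPM (linear axes from 0) for the 5 gated zones and the ungated cells. Points are pooled cells of each zone in 1 library and bars exact 95% Poisson intervals. Pitx1 and Nkx2-3 were lowest in the anterior gate, at 126 and 58.5 CPM, and Tlx1 was lowest in the dental gate, at 34.5 CPM.

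Isl1 stood at 227 CPM (199 to 258) in the tongue gate and 212 (197 to 227) in the posterior gate, which were not separated by counting error (log2 ratio 0.10, -0.12 to 0.31). It was at 105 CPM (91.1 to 121) in the knot, 91.5 (82.9 to 101) in the dental and 87.8 (84.5 to 91.2) in the anterior gate. The dental and anterior values were also not separated (log2 ratio 0.06, -0.09 to 0.21). Within the tongue gate, the 23 cells with a Shh UMI held Isl1 at 376 CPM and the 90 without at 193, a log2 difference of 0.97 (0.55 to 1.37). Pitx1 went the other way in those cells, at 232 CPM with Shh and 369 without.

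Tlx1 was at 75.9 CPM (60.1 to 94.6) in the tongue, 74.0 (65.7 to 83.1) in the posterior, 70.4 (58.9 to 83.5) in the knot, 44.8 (42.5 to 47.3) in the anterior and 34.5 (29.3 to 40.3) in the dental gate. The first 3 values overlapped within counting error. The order of Tlx1 therefore differed from that of Pitx1, for which the dental gate was highest. Tlx1 in the tongue gate exceeded all other cells by 0.47 on the log2 scale, and it fell below them, at -0.16 (5 CPM added), when cells were thinned to 4000 UMIs before gating.

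Nkx2-3 was highest in the posterior gate, at 175 CPM (162 to 188). It was at 124 CPM (109 to 141) in the knot, 115 (106 to 126) in the dental, 99.9 (81.6 to 121) in the tongue and 58.5 (55.8 to 61.3) in the anterior gate. The posterior level was 2.98-fold the anterior level. The anterior level was thus the lowest of the 5 for Pitx1, Nkx2-3 and Isl1, though for Isl1 it was not separated from the dental level, and it was not the lowest for Tlx1. Called doublets made up 14.2% of tongue, 12.4% of knot, 7.54% of anterior, 4.45% of posterior and 3.44% of dental cells, and with them left out 8 of the 20 pairs passed the size rule, Tlx1 in the knot gate being added.

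Pitx1 fell in steps with UMIs of Cxcl14, which encodes a chemokine, whereas Nkx2-3 was higher at 1 to 4 UMIs than at 0 and lower from 5 UMIs on. Pitx1 was at 432 CPM in cells without a Cxcl14 UMI, 426 with 1 to 2, 365 with 3 to 4, 233 with 5 to 9 and 95.7 with 10 or more. Nkx2-3 was at 130.2, 155, 152, 105 and 45.0 CPM in the same groups. Isl1 and Tlx1 changed less, from 120.01 to 75.8 CPM and from 62.3 to 38.7 CPM between the end groups, and most of that step lay between 5 to 9 and 10 or more UMIs. Isl1 was also higher at 3 to 4 UMIs, at 139 CPM (128 to 151), than at 0.

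Tfap2b, which encodes an AP-2 transcription factor and took no part in the gates, was used for the oral-aboral contrast. In cells with 0, 1, 2 to 4, 5 to 9 and 10 or more Tfap2b UMIs, Pitx1 was at 445, 375, 239.7, 123 and 76.8 CPM. Isl1 was at 147, 115, 89.3, 60.1 and 50.0 CPM in those groups. Tlx1 went from 68.8 to 31.3 CPM and Nkx2-3 from 148 to 34.1 CPM between the end groups. Median depth rose from 6203 to 8093 UMIs per cell between the end groups, and its part in these values was not tested.

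**Figure D2:**
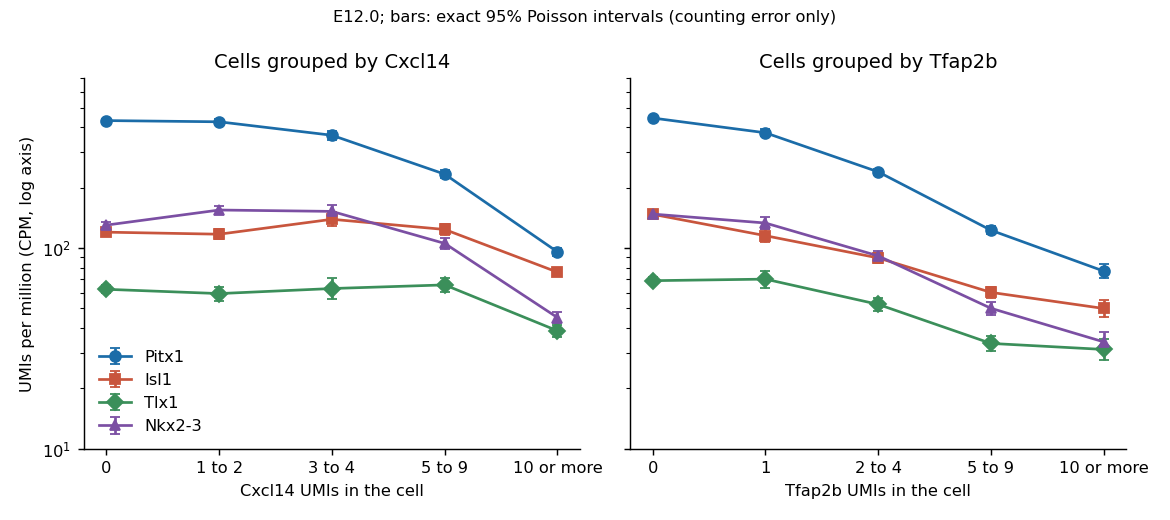
Levels of the 4 genes in E12.0 cells grouped by their Cxcl14 UMIs (left) and Tfap2b UMIs (right), in CPM on a log axis. Points are pooled cells of 1 library and bars exact 95% Poisson intervals. All 4 genes were lower at 10 or more UMIs of either gene than at 0, and Pitx1 spanned 445 to 76.8 CPM with Tfap2b. No share of all genes was computed for these groups, and Cxcl14 also set the anterior gate.

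The contrast of cells with at least 2 Tfap2b UMIs against cells with none was made at both stages. At E12.0 (4955 against 5497 cells) 4 of 4 members were at least 1.3-fold lower, against 5.97% of genes. Pitx1 was at 153 CPM against 445, Isl1 at 67.9 against 147, Tlx1 at 39.5 against 68.8 and Nkx2-3 at 60.7 against 148. In E9.5 surface epithelium (39 against 1784 cells) 4 of 4 were again lower, against 13.3% of genes. There Pitx1 was at 49.0 CPM against 206, a log2 difference of -2.07 (-2.65 to -1.55), and Nkx2-3 at 42.3 against 188. Isl1 was at 28.7 CPM against 75.7 and Tlx1 at 28.7 against 54.1.

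The next contrast followed the medial-lateral axis of the dental cells, with Bmp4 for the medial and Fgf8 for the lateral side, both of which encode signals of the early oral epithelium. Only 10 dental or overlap cells had Bmp4 and no Fgf8 UMI, against 183 with Fgf8 and no Bmp4 UMI. With called doublets left out, 7 and 169 cells remained. Of all anterior/dental overlap cells, 82.4% were called doublets. Isl1 was at 96.6 CPM on the Bmp4 side and 54.7 on the Fgf8 side, and its log2 difference of 0.82 had an interval from -0.19 to 1.70. Tlx1 was at 40.2 and 22.7 CPM (log2 0.82, -0.88 to 2.17), and Pitx1 at 483 and 506 CPM (log2 -0.07, -0.47 to 0.31). Nkx2-3 was at 72.4 and 143 CPM (log2 -0.98, -2.12 to -0.03). Past the 1.3-fold limit 2 members were higher, against 23.2% of genes, and 1 was lower, against 34.1%. The Isl1 and Tlx1 differences changed sign under some alternatives, so no direction is given for them. The study that reported these data names both genes as known medial markers and shows their medial expression by in situ hybridization. With 10 cells on the Bmp4 side, the contrast here cannot decide that pattern. Within the dental gate alone (7 against 170 cells), Nkx2-3 differed by -0.55 on the log2 scale (-1.88 to 0.52) and Tlx1 by 1.98 (0.24 to 3.39). That Tlx1 value rested on 5 UMIs in the 7 cells, so no direction is given for it here either.

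The anterior gate held more such cells, 350 with Bmp4 and 126 with Fgf8. Their median depths were 7258.5 and 10268.5 UMIs, and the part of depth or doublets in these values was not tested. Pitx1 was at 138 CPM with Bmp4 and 321 with Fgf8, a log2 difference of -1.21 (-1.42 to -1.01). Nkx2-3 was at 79.3 and 141 CPM (log2 -0.83, -1.12 to -0.54). Isl1, at 110.1 and 117 CPM, and Tlx1, at 50.0 and 58.4 CPM, did not differ beyond counting error. In the posterior gate (4 against 62 cells) Pitx1 differed by -1.50 (-2.83 to -0.44), and the intervals of the other 3 members included 0. That Pitx1 value rested on 7 UMIs in the 4 Bmp4 cells, so no direction is given for it.

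Whether the genes occurred in the same cells was counted after each cell was thinned to 4000 UMIs, which left 10439 E12.0 cells. A ratio above 1 means that more cells held both genes than the product of the 2 shares gives. Over all E12.0 cells the interval lay above 1 for 6 of 6 pairs. No ratio was computed for pairs of other genes, at either stage or in any group of cells. Whether such counts of pairs above 1 are particular to the members was therefore not tested. Ratios over mixed zones include the differences between zones, so they were also counted within zones.

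In the anterior gate the ratio was above 1 for all 6 pairs. This gate was itself mixed, since Pitx1 and Nkx2-3 both differed within it between Bmp4 and Fgf8 cells. Its ratios therefore also include differences between groups of cells inside the gate. Pitx1 and Nkx2-3 shared 426 of 4008 cells there, at a ratio of 2.39 (2.18 to 2.61), and the other 5 pairs lay between 1.60 and 1.91. Splitting the gate at 10 Cxcl14 UMIs left Pitx1 and Nkx2-3 at 1.62 (1.43 to 1.81) with 5 to 9 UMIs and 2.88 (2.49 to 3.30) with 10 or more. In the posterior gate the ratios lay between 0.97 and 1.10 and all 6 intervals included 1. The ratio has a ceiling set by the more frequent gene, and for the pairs with Pitx1 this was 1.24 in the posterior and 1.28 in the dental gate, against 3.80 in the anterior gate. The posterior gate also held only 510 thinned cells, so the ratios of the gates were not compared. In the dental gate only Isl1 and Tlx1 stood above 1, at 1.87 (1.27 to 2.64) in 30 of 544 cells. The same pair stood at 1.47 (1.34 to 1.61) in ungated cells. The dental gate and the ungated cells may also be mixed, and the part of such mixing in these ratios was not tested. No interval lay above 1 in the tongue or knot gate, which held 113 and 226 thinned cells.

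**Figure D3:**
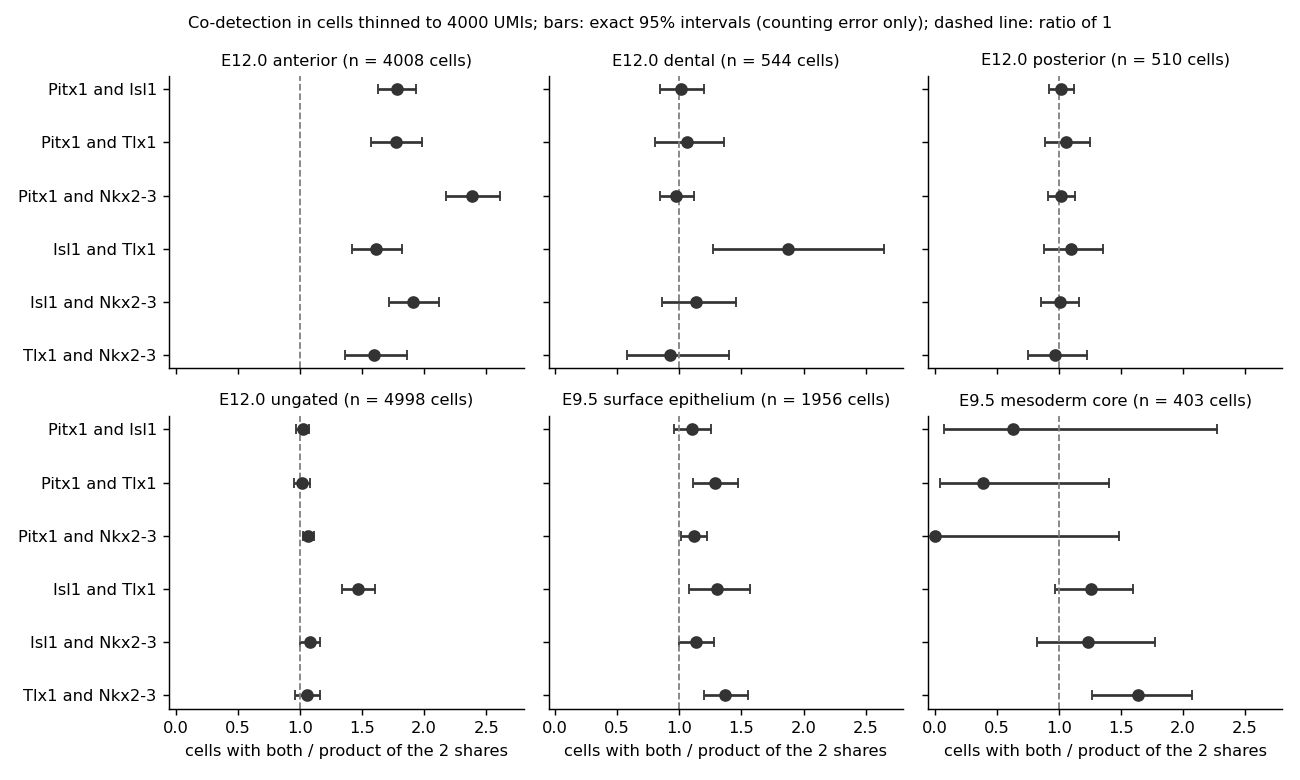
Co-detection of each pair of genes in cells thinned to 4000 UMIs, as cells with both genes over the product of their shares. Bars are the exact 95% interval of the share with both, divided by that product held fixed, and the dashed line is at 1. Panels are 4 groups of E12.0 cells and 2 of E9.5 cells, 1 library per stage. All 6 pairs lay above 1 in the anterior gate, while in the posterior gate the pairs with Pitx1 could not exceed 1.24.

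At 4000 UMIs, 26.2% of E12.0 cells held no UMI of any of the 4 genes and 2.62% held all 4. The share with none was 51.7% in the anterior, 19.9% in the knot, 15.9% in the tongue, 9.19% in the dental and 4.71% in the posterior gate. All 4 were present in 5.88% of posterior and 1.67% of anterior cells. Pitx1 alone was the most frequent single state over all cells, at 19.0%.

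The E9.5 library also held other tissues, so the question there was which tissue carried each gene. Epithelium was taken as cells with at least 5 UMIs of Epcam and Cdh1 (2223 cells), the mesoderm core as cells with at least 3 of Tcf21, Msc and Myf5 (404 cells) and mesenchyme as cells with at least 5 of Twist1, Prrx1, Prrx2 and Pdgfra (5395 cells), each with a limit on the other classes' genes. In the epithelium 4 of 4 members passed the size rule, against 11.8% of the 12470 genes compared. In the mesoderm core Isl1 and Tlx1 passed, against 5.67%, and in mesenchyme 0 of 4, against 4.01%.

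Pitx1 was epithelial, at 202 CPM (197 to 207) in epithelium, 6.09 (4.27 to 8.43) in the core and 4.54 (4.10 to 5.02) in mesenchyme. Blood cells, which should lack the gene, stood at 3.05 CPM (0.63 to 8.90) and endothelium at 9.20 (6.85 to 12.1). The core and mesenchyme values lay within the blood interval, which rested on 3 UMIs in 58 cells. Whether they were background RNA or low expression was not tested. At 4000 UMIs a Pitx1 UMI was found in 40.1% of surface epithelial cells (median depth 13447 UMIs) and 1.85% of blood cells (median 17029).

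Nkx2-3 was at 192 CPM (187 to 197) in epithelium and 53.1 (47.4 to 59.3) in the core, against 4.91 in mesenchyme, 7.11 in blood and 8.66 in endothelium. The core therefore held Nkx2-3 at 6.14-fold the endothelial level, while Pitx1 was at 6.09 CPM in the same core cells. Called doublets made up 4.95% of core and 0.405% of epithelial cells. Without them the core held Nkx2-3 at 54.1 CPM (48.1 to 60.6) and Pitx1 at 5.68 (3.86 to 8.07). The epithelial keratin gene Krt18 was used by no gate. Over all cells it was at 33.8 CPM (29.3 to 38.9) in the core, 28.5 (24.2 to 33.3) in endothelium and 689 in epithelium. With called doublets left out, Krt18 was at 34.3 CPM (29.6 to 39.6) in the core and 18.3 (14.8 to 22.3) in endothelium. Endothelium then held Nkx2-3 at 7.27 CPM and Pitx1 at 4.47 (2.87 to 6.66). The part of epithelial RNA in the core values was not tested.

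Tlx1 was higher in the mesoderm core, at 171 CPM (160.4 to 182), than in epithelium, at 59.4 (56.7 to 62.1), a log2 difference of 1.52 in favour of the core and the reverse of the order of Pitx1 and Nkx2-3. It was at 5.42 CPM in mesenchyme and 6.09 in blood. Isl1 did not differ beyond counting error between epithelium, at 79.0 CPM (75.9 to 82.2), and core, at 85.8 (78.5 to 93.6). It was at 9.10 CPM in mesenchyme, 15.2 in blood and 30.7 (26.2 to 35.6) in endothelium.

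**Figure D4:**
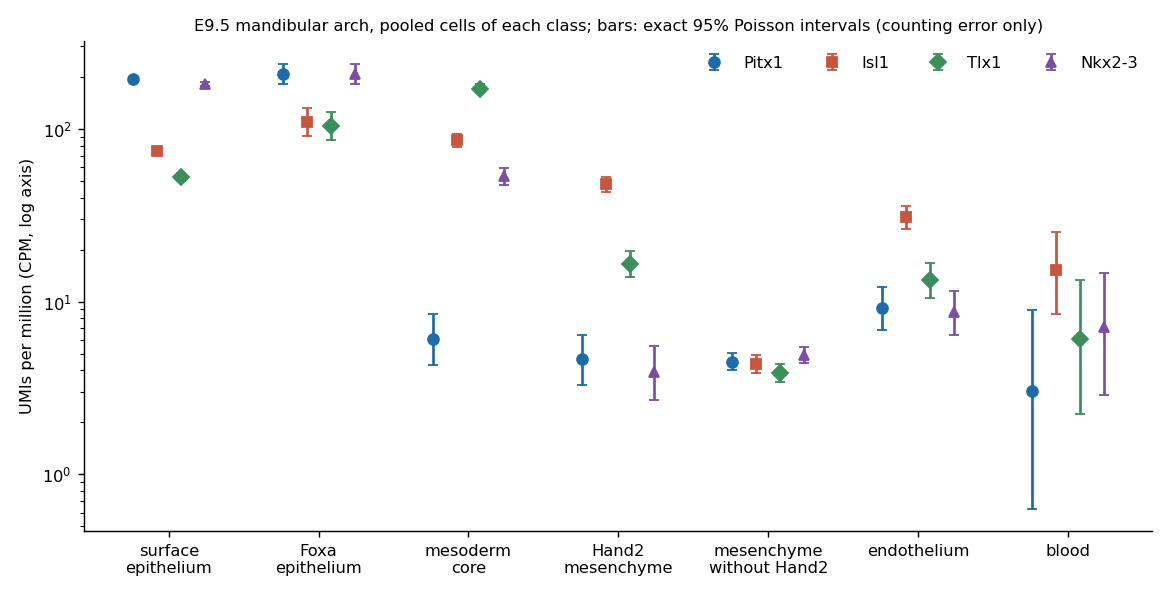
Levels of the 4 genes in classes of E9.5 cells, in CPM on a log axis, with exact 95% Poisson intervals. Points are pooled cells of 1 library. Tlx1 peaked in the mesoderm core at 171 CPM, and Isl1 stood at 47.9 CPM in mesenchyme with Hand2 against 4.35 CPM without.

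Mesenchyme was not uniform for Isl1. In the 484 mesenchyme cells with at least 2 UMIs of Hand2, a factor of the distal arch, Isl1 was at 47.9 CPM (43.2 to 52.9), and in the 4433 without Hand2 it was at 4.35 (3.87 to 4.87), while blood cells stood at 15.2 (8.52 to 25.1). Tlx1 was at 16.6 CPM (13.9 to 19.6) with Hand2 and 3.85 without, and the first value overlapped that of endothelium, at 13.3 (10.5 to 16.8). Pitx1, at 4.67 and 4.48 CPM, and Nkx2-3, at 3.93 and 4.89 CPM, lay within their blood intervals in both (0.63 to 8.90 and 2.86 to 14.6). Isl1 and Tlx1 were found together in 18 of 479 Hand2 cells, at a ratio of 3.15 (1.88 to 4.92).

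Within the epithelium, cells were split by Foxa and by Vgll2, a transcriptional cofactor gene of the oral arch. The 66 cells with at least 2 Foxa UMIs, which mark endoderm, held Tlx1 at 104 CPM and Isl1 at 110.1, against 52.9 and 74.3 in the 1964 surface cells without Foxa. Foxa1 and Foxa2 were sparse, being found in 1.37% and 2.49% of E9.5 cells. The surface epithelium of this and the other contrasts may therefore still include endoderm without a Foxa UMI. Pitx1, at 207 and 195 CPM, was not separated by counting error. Of the Foxa cells, the 20 with Pax1, a gene of the pharyngeal pouches, held Pitx1 at 18.6 CPM and Tlx1 at 15.5, and the 46 without Pax1 held 289 and 143. Surface cells with Vgll2 (846 cells) held more Pitx1 than the 747 with neither Vgll2 nor Tfap2b, at 237 and 169.8 CPM. The other 3 members were lower with Vgll2, with Tlx1 at 32.0 against 83.8 CPM, Isl1 at 60.0 against 98.6 and Nkx2-3 at 166 against 211. Median depths were 15201 UMIs with Vgll2 and 11252 with neither gene, and the part of depth was not tested. No share of all genes was computed for this split.

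In the E9.5 surface epithelium (1956 thinned cells), of the 6 pairs 5 had intervals above 1, the highest being Tlx1 and Nkx2-3 at 1.37 (1.20 to 1.55). Pitx1 and Isl1 stood at 1.10 (0.96 to 1.25), and the lower bound for Isl1 and Nkx2-3 was 1.00 after rounding. This epithelium was itself mixed, since all members differed within it between cells with Vgll2 and cells with neither Vgll2 nor Tfap2b. Its ratios therefore also include differences between groups of cells. In the 846 thinned surface cells with Vgll2, only Tlx1 and Nkx2-3 stood above 1, at 1.64 (1.27 to 2.07). The interval of every other pair included 1 there, in fewer cells. In the mesoderm core Tlx1 and Nkx2-3 shared 58 of 403 cells, at 1.64 (1.26 to 2.07). The number of pairs above 1 in the surface epithelium ranged from 1 to 6 over the alternatives.

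Between stages, E12.0 cells were set against E9.5 surface epithelium. Stage cannot be told apart from library, sort, depth, version of the counting software and list of genes here. Pitx1 was at 303 CPM at E12.0 and 195 at E9.5, and Isl1 at 108 and 74.3 CPM, so 2 members were at least 1.3-fold higher at E12.0, against 34.1% of genes. Nkx2-3 was at 106 and 182 CPM, and this 1 member was lower, against 18.9% of genes. Tlx1 was at 55.2 and 52.9 CPM (log2 0.06, -0.02 to 0.15). The Pitx1 value depended on the zone, since its dental level was above the E9.5 level by 1.25 on the log2 scale (1.18 to 1.33) while its anterior level was below it, at -0.63 (-0.70 to -0.57). Nkx2-3 in the posterior gate, at 175 CPM, did not differ from E9.5 beyond counting error.

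Close relatives and cofactors of the members were mostly rare or did not pass the size rule. Of 13 such genes, 2 passed in the posterior gate (Isl2, at 29.4 CPM against 7.35 in other cells, and the LIM-only cofactor gene Lmo4, at 458 against 348) and 1 in the anterior gate (Lmo1, another LIM-only gene, at 297 against 34.7). None passed in the tongue, knot or dental gate. Over all genes compared the shares were 3.31% in the posterior, 2.69% in the anterior, 5.06% in the tongue, 6.74% in the knot and 2.86% in the dental gate. At E9.5, 1 passed in epithelium, Nkx2-5, a heart factor gene related to Nkx2-3, at 36.0 CPM against 10.5. It had 1 UMI in all E12.0 cells. Lmo4 passed in E9.5 mesenchyme, at 396 CPM against 171, and none passed in the core. The E9.5 shares over all genes compared were 11.8% in epithelium, 4.01% in mesenchyme and 5.67% in the core. The median log2 ratio of the 13 genes lay between -0.13 and 0.03 (5 CPM added) in the 8 groups.

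Of 15 oral and aboral factors and signals, 3 passed in the posterior gate (Sox2, a progenitor factor gene, at 296 CPM against 56.2, Tcf7l2, a Wnt effector gene, and Foxp2). The numbers were 5 in the anterior, 4 in the dental, 7 in the knot and 1 in the tongue gate. Over all genes compared the shares were 3.31% in the posterior, 2.69% in the anterior, 2.86% in the dental, 6.74% in the knot and 5.06% in the tongue gate. The anterior 5 were Msx1, Msx2, Gata3, Lef1 and Trps1, with Msx1 at 257 CPM against 75.8. The study reported Msx1, Msx2, Gata3, Lef1 and Trps1 as anterior and Sox2, Tcf7l2 and Foxp2 as posterior from the same E12.0 library. Their passing in those gates is therefore no independent result. The study also named Hoxc13 as anterior and Sox21 as posterior, and these did not pass in the anterior and posterior gate. The median log2 ratio of the 15 genes was -0.36 in the posterior and -0.29 in the anterior gate (5 CPM added), against 0.0053 and -0.03 over all genes compared. At E9.5, 4 passed in epithelium (Vgll2, Fgf8, Sox2 and Gata3), 3 in mesenchyme and 2 in the core. The shares over all genes compared were 11.8%, 4.01% and 5.67% in these tissues.

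The genes most like each member were ranked by the log2 ratio of their CPM, 5 added, between cells with at least 2 UMIs of the member and cells with none. At E12.0 the first for Pitx1 were Sox2 (99.0 CPM with and 14.8 without), Barx1, another homeobox gene, and Nkx2-3. For Isl1 the first were Unc5c, a netrin receptor gene (66.6 and 17.5 CPM), Barx1 and Rxfp1. The 5 highest-ranked genes for Tlx1 included Barx1 (172 and 49.9 CPM) and Unc5c. For Nkx2-3 they were Fgf8 (40.0 and 15.5 CPM), Pitx1 and Sox2, followed by Ube2c, a gene of mitosis (228 and 117 CPM). The mitosis gene Cenpf, named after its value was seen, was also higher in cells with Nkx2-3 (541 and 289 CPM), and the part of the cell cycle in this ranking was not tested. Cells with 2 or more UMIs of a member were deeper, for example a median of 6965 against 5854.5 UMIs for Pitx1.

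At E9.5, where cells of all tissues entered the ranking, Vgll2 led for Pitx1 (270 and 24.6 CPM) and Foxe1, a foregut and oral forkhead gene, led for Isl1 (71.5 and 7.52 CPM). Kazald1 (54.2 and 3.50 CPM) and Tcf21, one of the genes of the core gate (48.0 and 4.56 CPM), led for Tlx1. Pitx1 led for Nkx2-3 (205 and 21.0 CPM). Foxe1 was among the 5 highest-ranked genes of all 4 members at E9.5.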

How the data were processed

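Single cells of the E12.0 mandibular epithelium and the E9.5 mandibular arch were measured by droplet RNA sequencing, in 1 library each. The authors deposited UMI counts per gene and barcode, not normalized, with barcodes already selected as cells. The submitters' processing notes name Cell Ranger 2.0.0, and the file headers name 3.1.0 (E12.0) and 6.1.2 (E9.5). The genome was GRCm38. No replicates exist, so no test was run.

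Counts were summed per group and divided by its UMIs (CPM). Poisson, Clopper-Pearson and conditional binomial intervals (95%) cover counting error only. A group with 0 counts was given 3 for ratios. Cells were thinned to 4000 UMIs (seed 1) for co-detection. Doublets were called with Scrublet in scanpy 1.11.5 and kept. The steps were tested on simulated data for the dental gate, where 200 of 200 genes changed 2-fold among 2000 were recovered with 0 false calls. These changes lay well past the limit of 1.3-fold, so their recovery cannot show how the size rule performs near that limit. Tlx1 was near it, at 1.33-fold in the posterior and 1.35-fold in the tongue gate (5 CPM added). Python 3.11.15, numpy 2.4.6, scipy 1.17.1, pandas 2.3.3 and matplotlib 3.10.9 were used.

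Genes named beyond the members come from 2 lists of relatives and of oral and aboral factors, and from the 5 genes ranked most like each member (a UMI in at least 15% of cells with the member). The members, lists and gates were chosen with earlier results of these data known. The splits by Bmp4 and Fgf8 within single zones, by Shh in tongue cells and by Cxcl14 in the anterior gate were added after values were seen. Results for some genes are not reported here. Alternatives changed gates, filters, doublets, thinning, cell weights and size limits.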

Additional observations from a re-analysis of the deposited data

How the results depend on the processing

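No paired analysis was possible because each stage has 1 library, and no replicate could be left out. Across the alternatives, the count of 7 pairs of member and E12.0 zone ranged from 2 to 8, with the 2 from a fold of 2. The 6 pairs of member and E9.5 tissue ranged from 5 to 7, and the 6 co-detected pairs at E12.0 from 5 to 6. The 5 co-detected pairs of the E9.5 surface epithelium became 2 with an epithelial gate of 10 UMIs (772 cells), 3 without thinning, 2 in the 1075 cells with Xist and no Y-linked UMI and 1 in the 481 cells with the opposite pattern. The stricter gate and both selections hold fewer cells, and the cause of the drop without thinning was not tested. With a fold of 2, the 3 members past the limit between stages became 0, as did the 3 between Bmp4 and Fgf8 dental cells. The 8 lower values in Tfap2b cells ranged from 6 to 8.

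Of 604 recomputed log2 folds of members, 456 stayed within the counting interval, 141 moved beyond it and 7 of those past their limit changed sign. Tlx1 in the tongue gate became -0.16 when cells were thinned before gating. The other 6 were in the contrast of Bmp4 and Fgf8 dental cells, where Isl1 became -0.15 with at most 5% mitochondrial UMIs and -0.18 in cells with Xist. Tlx1 became -3.08 with at most 5% mitochondrial UMIs, -0.39 with gates of 3 UMIs, -2.53 in cells with a Y-linked UMI and -2.18 with 1 more UMI for the positive gate. The Bmp4 side held 4, 2, 4, 4 and 1 cells in those selections. With called doublets left out, no fold past its limit changed sign. Precision is limited by group size, which in the main settings went from 4 Bmp4 cells in the posterior gate to 11355 cells for E12.0.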

Other observations

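At E9.5, 3981 of the kept cells passed no tissue gate. Their median depth was 6225 UMIs, against 13472 in epithelium, and Epcam and Cdh1 summed to 224 CPM in them. They held Pitx1 at 108 CPM, Isl1 at 83.0, Tlx1 at 82.4 and Nkx2-3 at 127, all above the levels of blood cells. In the 34 E12.0 cells past both the anterior and the dental gate, 82.4% were called doublets and the median depth was 13934.5 UMIs. Pitx1 was at 359 CPM in them. At E9.5 the 23 Sox10 cells, of which 52.2% were called doublets, held Pitx1 at 52.4 CPM and Nkx2-3 at 65.0.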
